A study of Mus musculus with 12 samples.

Results

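Tuba8 and its relatives, 10 genes that encode alpha- and beta-tubulins, were examined in the livers of mice given a vector for R-spondin 2. The members were taken by gene symbol from the deposited table of 54532 genes: Tuba8, Tuba1a, Tuba1b, Tuba1c and Tuba4a for alpha-tubulin, and Tubb2a, Tubb2b, Tubb4b, Tubb5 and Tubb6 for beta-tubulin. Tuba8 was picked because it was higher in the Rspo2-AAV livers, so its difference between the groups is described without a test. The other 9 were taken as its family and were tested. All 10 genes had a mean of at least 0.5 FPKM (read fragments scaled to gene length and library size) and entered the fit of 13447 genes.

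Every mouse was an Apoe knockout, which lacks functional apolipoprotein E, and the labels give no age. The 6 control livers came from animals injected with a Gfp-AAV, an adeno-associated virus carrying green fluorescent protein. The 6 other livers came from animals given an Rspo2-AAV, which delivers R-spondin 2, a secreted enhancer of Wnt/beta-catenin signalling. The series title sets the question in hepatic fat storage and AMPK-ACC signalling. The labels number the controls 1 to 6 and the Rspo2-AAV samples 1, 2, 4, 5, 6 and 7. The promoter of the vectors, the dose and the time after injection are not given in the sources used here. The labels do not state that each sample is a separate animal, so a p-value here speaks only of how these samples vary.

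Some libraries stood apart before any tubulin was considered. Xist, an RNA made from the silenced X, stood out in 3 libraries (control 3 with 42.0 FPKM, Rspo2-AAV 1 with 28.0 and number 2 with 5.57), while 9 libraries had less than 1 FPKM. The 11 pancreatic acinar markers summed to 46138 FPKM in Rspo2-AAV 4, 3876 in number 5, 451.7 in number 6 and 43.0 in number 7, against 3.99 to 16.0 in the other 8 libraries. Rspo2 was listed at 0 in all controls and ran from 49.9 FPKM in Rspo2-AAV 2 to 572.7 in number 5. Recovered reads numbered 14295644 to 22195576 per library. Earlier results on these data separated numbers 1 to 3 from numbers 4 to 7, so the tubulins are given in all 12 libraries and in each of these sets (3 control and 2 Rspo2-AAV libraries, then 3 and 4). The labels do not say what the numbers stand for.

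Alpha- and beta-tubulin join into dimers, and the dimers stack into microtubules, the hollow filaments along which hepatocytes move vesicles and on which chromosomes are pulled apart in division. Mammals carry several genes for each partner, called isotypes, whose proteins are close in sequence and are used in different proportions by different tissues. Cells sense free dimers and degrade tubulin messages when the dimer pool is large, so tubulin genes are often seen to move together. Tuba8 is a divergent alpha-tubulin best known from heart, skeletal muscle, testis and brain. Tubb2b and Tuba1a are known for their use in developing neurons, and Tubb5, Tubb4b, Tuba1b and Tuba1c are broadly used.

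Tuba8 could be told apart from its relatives by its sequence, which bears on every value given for it. The stretch shown here is coding bases 76 to 135, the 60 bases in which Tuba8 differed most from the other alpha genes, read from GENCODE M21 transcripts of GRCm38. Capitals in Tuba8 mark the 30 bases found in none of the other 4 genes, and capitals in those genes mark bases that differ from Tuba8.
Tuba8: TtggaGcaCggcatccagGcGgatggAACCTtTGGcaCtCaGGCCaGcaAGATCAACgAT
Tuba1a: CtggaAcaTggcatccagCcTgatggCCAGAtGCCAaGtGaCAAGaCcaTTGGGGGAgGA
Tuba1b: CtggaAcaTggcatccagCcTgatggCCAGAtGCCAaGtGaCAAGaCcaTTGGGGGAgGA
Tuba1c: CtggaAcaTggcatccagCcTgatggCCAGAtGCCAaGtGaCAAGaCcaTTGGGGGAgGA
Tuba4a: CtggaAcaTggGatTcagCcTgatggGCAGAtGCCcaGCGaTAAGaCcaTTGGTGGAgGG
The printed bases of Tuba1a, Tuba1b and Tuba1c were identical to each other. Tuba4a differed from Tuba8 at 33 of the 60 bases and the other 3 genes at 31.

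Over the whole coding sequence, Tuba8 was 79.2% to 79.9% identical to Tuba1a, Tuba1b and Tuba1c and 81.0% identical to Tuba4a. The 3 Tuba1 genes were 97.6% to 98.4% identical to each other, and Tubb2a and Tubb2b were 96.5% identical. None of the 2164 windows of 100 bases in the Tuba8 transcript occurred in a transcript of another gene. The share was also 0 for Tuba4a, Tubb5 and Tubb6. Transcripts were compared in their own direction only, so overlap with an antisense gene was not looked for. The share of such windows was 65.1% for Tuba1a, 69.5% for Tuba1b, 53.4% for Tuba1c, 36.9% for Tubb2a, 27.7% for Tubb2b and 29.2% for Tubb4b. Reads from such windows fit more than 1 gene, so the separate values of the Tuba1 genes, of Tubb2a and Tubb2b, and of Tubb4b and its pseudogenes are uncertain. The way the authors counted such reads is not given in the sources used here.

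Tuba8 (ENSMUSG00000030137) lies on chromosome 6 of GRCm38, from 121210696 to 121226854 on the plus strand. It was at 1.47, 1.56, 1.62, 2.03, 1.12 and 1.18 FPKM in controls 1 to 6. In the Rspo2-AAV libraries it was at 9.91 in number 1, 3.60 in number 2, 18.0 in number 4, 18.7 in number 5, 24.0 in number 6 and 22.9 in number 7. The lowest Rspo2-AAV library lay above the highest control, and numbers 1 and 2 lay below the other 4. The reads behind these values numbered 36 to 89 per control and 125 to 790 per Rspo2-AAV library.

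The mean of Tuba8 was 1.5 ± 0.333 FPKM in controls and 16.2 ± 7.91 FPKM in Rspo2-AAV livers (SD, n = 6 per group), a ratio of 10.8. The difference in log2(FPKM + 0.5), a scale that makes changes of low genes look smaller, was 2.86 ± 0.37 (SE). It was 3.48 ± 0.18 among numbers 4 to 7 and 1.67 ± 0.39 among numbers 1 to 3. In the 9 libraries with Xist under 1 FPKM it was 3.45 ± 0.15. The groups of Tuba8 do not overlap, so any subset of these libraries has to give a positive difference. Only its size is described. Among all 13447 tested genes 5.20% were called (adjusted p under 0.05 in limma) and 3.24% had groups that did not overlap, and nothing is read from these shares for Tuba8, which was chosen on this contrast.

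**Figure D1:**
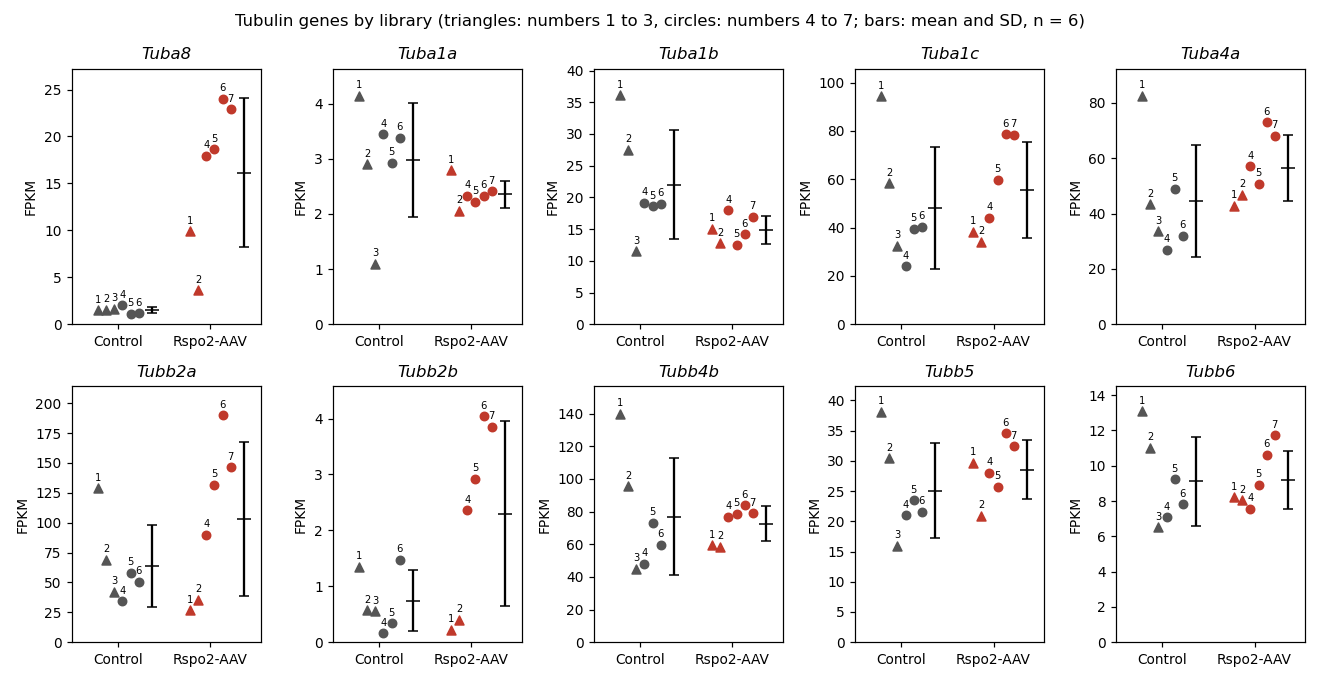
FPKM of each of the 10 tubulin genes in each library, with the label number beside each point; triangles are numbers 1 to 3, circles numbers 4 to 7, and the bars give the mean and SD of the 6 libraries of a group. Only the panel of Tuba8, which was chosen for its rise, shows groups that do not overlap. Its controls are at 1.12 to 2.03 FPKM and its Rspo2-AAV libraries at 3.60 to 24.0 FPKM.

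The place of Tuba8 among the alpha-tubulins differed between the groups. In controls Tuba8 made up 0.671% to 2.70% of the summed alpha-tubulin FPKM. In Rspo2-AAV livers it made up 9.11% in number 1, 3.63% in number 2 and 12.1% to 13.0% in numbers 4 to 7. It stood ninth of the 10 tubulin genes by mean in controls and sixth in Rspo2-AAV livers. There its neighbour in the order was Tuba1b at 14.9 FPKM, and Tuba8 was the higher of the pair in 3 of 6 libraries. Even so, Tuba1c and Tuba4a remained the main alpha-tubulin messages, with 31.6% to 47.1% of the sum each in every Rspo2-AAV library.

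The level of Tuba8 was set beside that of the Rspo2 message. Rspo2-AAV 2 had the lowest Rspo2 (49.9 FPKM) and the lowest Tuba8, and number 1 the next lowest of both (122.2 FPKM of Rspo2). Among numbers 4 to 7, Rspo2 was at 386.4, 572.7, 461.0 and 265.1 FPKM, and Tuba8 was highest in number 6 and lowest in number 4. The 6 libraries fall into 2 clusters by number, so no correlation over them is given.

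**Figure D2:**
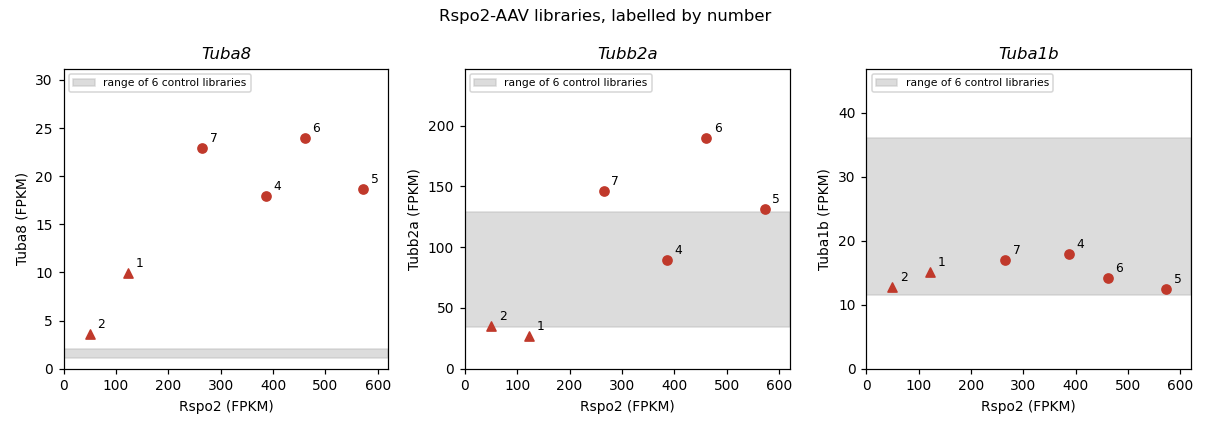
FPKM of Tuba8, Tubb2a and Tuba1b against FPKM of Rspo2 in the 6 Rspo2-AAV libraries, labelled by number, with the range of the 6 control libraries as a grey band. Tuba8 lies above the control band in all 6 libraries, Tubb2a only in numbers 5, 6 and 7, and Tuba1b in none.

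Because Tuba8 is known from muscle and testis, markers of those tissues were read beside it. The 13 skeletal and heart muscle markers summed to 0.324 to 5.61 FPKM in controls and 0.902 to 1.22 FPKM in Rspo2-AAV livers, and the highest sum was in control 1. The 7 testis markers summed to at most 0.1 FPKM in any library, and 4 of them were listed at 0 throughout. The 10 neuron and glia markers summed to 2.12 to 2.79 FPKM in controls and 1.43 to 2.62 in Rspo2-AAV livers. The 8 hepatocyte markers, Alb among them, summed to 21686 to 51439 FPKM in every library, the highest sums of any marker list apart from the acinar sum of Rspo2-AAV 4.

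Other cell type markers did move between the groups. Over all tested genes 2.55% were called higher and 2.65% lower. Of 10 macrophage and Kupffer cell markers, 0 were called higher and 5 lower, and their sum was 201.0 to 390.9 FPKM in controls and 102.0 to 187.1 in Rspo2-AAV livers. Of 10 stellate cell and fibroblast markers, 0 were higher and 4 lower, with sums of 55.8 to 79.2 and 26.1 to 48.0 FPKM. Of 7 erythroid markers 4 were higher and 0 lower, with sums of 97.4 to 353.9 FPKM in controls and 229.5 to 1367 in Rspo2-AAV livers. By number set, 2 of 7 were higher and 0 lower among numbers 1 to 3, where 0.105% of all genes were called. Among numbers 4 to 7, 0 of 5 tested were higher and 1 lower, where 6.52% and 7.00% of all genes were. The part of these cells in the tubulin values was not tested, and in whole liver fewer cells of a type and less RNA per cell cannot be told apart. Of the acinar markers 0 of 11 were called over all 12 libraries (10 had an unadjusted p under 0.05, and limma-voom called 0). Their sum fell in the order 4, 5, 6 and 7, while Tuba8 was at 18.0, 18.7, 24.0 and 22.9 FPKM in those libraries. Without Rspo2-AAV 4 and 5 the Tuba8 difference was 2.66 ± 0.43.

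Over all 12 libraries none of the other 9 tubulin genes was called in either direction. By limma 0 of 9 passed the adjusted threshold, 0 of 9 had an unadjusted p under 0.05 (21.5% of all tested genes did), and limma-voom on recovered reads also called 0 of 9 (4.90% of all genes). The groups overlapped for all 9, and 3.24% of all genes had groups that did not. The median log2 change of the 9 was 0.22, beside 0.00 for all genes. Their standard errors ran from 0.17 for Tubb6 to 0.48 for Tubb2a and Tubb2b.

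Among the alpha-tubulins, Tuba1b and Tuba1a had negative and Tuba1c and Tuba4a positive differences. Tuba1b (ENSMUSG00000023004, chromosome 15, 98931425 to 98934565), a broadly used alpha-tubulin, was at 36.1, 27.5, 11.5, 19.2, 18.6 and 18.9 FPKM in controls 1 to 6. It was at 15.0, 12.8, 18.0, 12.5, 14.2 and 17.0 FPKM in Rspo2-AAV 1, 2, 4, 5, 6 and 7. The groups overlapped only through control 3, which was the lowest of all 12 libraries, and the difference was -0.47 ± 0.22 (SE, limma adjusted p = 0.239).

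Tuba1a (chromosome 15, 98949837 to 98953703), the neuronal isotype, was at 1.09 to 4.14 FPKM in controls, median 3.16, and at 2.06 to 2.79 in Rspo2-AAV livers, median 2.32. Control 3 was again the lowest, and the difference was -0.22 ± 0.21 (limma adjusted p = 0.596). Without control 3 it was -0.43 ± 0.11 and was called (limma adjusted p = 0.0322). Tuba1a was also called lower among numbers 4 to 7 (-0.41 ± 0.09, limma adjusted p = 0.0259), where controls were at 2.93 to 3.44 FPKM and Rspo2-AAV libraries at 2.22 to 2.41. Each of the 3 alternatives that called Tuba1a lower left out control 3.

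Tuba1c (chromosome 15, 99029891 to 99038110), which lies within the same cluster, was at 23.9 to 94.4 FPKM in controls and 34 to 78.6 in Rspo2-AAV livers, with a difference of 0.27 ± 0.32 (limma adjusted p = 0.677). Tuba4a (chromosome 1, 75214228 to 75219865) was at 26.9 to 82.6 and 42.8 to 73.0 FPKM, with a difference of 0.41 ± 0.24 (limma adjusted p = 0.356). For both genes control 1 was the highest of all 12 libraries. The differences of Tuba1b and Tuba1c, neither of which was called, had opposite signs over all 12 libraries and were both negative among numbers 1 to 3 (-0.68 and -0.64). The ratio of Tuba1b to Tuba1c was 0.35 to 0.80 in controls and 0.18 to 0.41 in Rspo2-AAV livers. Taken as a share of the alpha-tubulin sum without Tuba8, Tuba1b was at 14.6% to 26.1% in controls and 8.44% to 15.2% in Rspo2-AAV livers. These ratios were chosen after the values were seen and carry no test.

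Among the beta-tubulins, Tubb2a and its near copy Tubb2b had the largest differences and the largest spread. Tubb2a (ENSMUSG00000058672, chromosome 13, 34074274 to 34078007) was at 128.7, 68.8, 41.9, 34.3, 58.0 and 50.5 FPKM in controls 1 to 6. In the Rspo2-AAV livers it was at 26.7 in number 1, 35.3 in number 2, 89.6 in number 4, 131.7 in number 5, 190.0 in number 6 and 146.2 in number 7. Number 1 was below and number 2 just above the lowest control, number 4 lay above every control but control 1, and numbers 5, 6 and 7 lay above all controls. Over all 12 libraries the difference was 0.51 ± 0.48 (limma adjusted p = 0.593).

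Tubb2b (chromosome 13, 34126748 to 34130466) showed a similar split of the Rspo2-AAV livers at a much lower level. It was at 1.35, 0.570, 0.549, 0.158, 0.338 and 1.48 FPKM in controls 1 to 6, and at 0.225, 0.397, 2.36, 2.92, 4.04 and 3.85 FPKM in Rspo2-AAV 1, 2, 4, 5, 6 and 7. The difference was 0.97 ± 0.48 (limma adjusted p = 0.27), on 7 to 135 reads per library. Tubb2b shares 27.7% of its 100-base windows with other genes, Tubb2a first among them, so its values may hold reads of Tubb2a. The ratio of Tubb2a to Tubb4b was 0.71 to 0.93 in controls, 0.45 and 0.60 in Rspo2-AAV 1 and 2, and 1.17 to 2.27 in Rspo2-AAV 4 to 7.

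Over all 12 libraries the other beta-tubulins differed little between the groups. Tubb4b (chromosome 2, 25222160 to 25224702) was at 45.0 to 140.1 FPKM in controls and 58.6 to 83.7 in Rspo2-AAV livers, with a difference of 0.02 ± 0.25 (limma adjusted p = 0.972). Tubb5 (chromosome 17, 35833921 to 35838306), abundant in dividing cells, was at 15.9 to 38.1 and 20.9 to 34.6 FPKM (0.22 ± 0.19, limma adjusted p = 0.556). Tubb6 (chromosome 18, 67390717 to 67402748) was at 6.51 to 13.1 and 7.57 to 11.7 FPKM (0.03 ± 0.17, limma adjusted p = 0.937). Control 1 was the highest control for 8 of the 10 members, all but Tuba8 and Tubb2b.

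The 9 genes were also tested within each number set. Among numbers 4 to 7, 5 of the 9 were called by limma, 4 higher (Tubb2a, Tubb2b, Tuba4a and Tubb5) and 1 lower (Tuba1a), or 55.6%. Of all genes 13.5% were called in those libraries, 6.52% higher and 7.00% lower. The groups separated there for 8 of the 9, or 88.9%, against 29.1% of all genes. Many of the 9 vary together and some share reads, so they are not separate results and the shares are no test of the family. Numbers 4 to 7 also leave out control 1, the highest control for 8 of the 10 members. Among numbers 1 to 3, 0 of the 9 were called by limma (1 had an unadjusted p under 0.05), all 9 differences were negative, and 0.105% of all genes were called. These sets hold 7 and 5 libraries. In the 9 libraries with Xist under 1 FPKM, 2 of the 9 were called (Tubb2b 1.68, Tuba1a -0.44; 12.8% of all genes). Without Rspo2-AAV 1 and 2, also 2 of the 9 were called (Tubb2b 1.70, Tubb2a 1.21; 10.1% of all genes). Cell type markers were called in the same sets. Among numbers 4 to 7, 5 of 11 acinar markers were higher, and 9 of 10 stellate and 5 of 10 macrophage markers were lower. Among numbers 1 to 3 only 2 of the 11 acinar markers passed the filter on low values. Most thus entered the other fits through Rspo2-AAV libraries where they are high, so the acinar counts are only a description. Without Rspo2-AAV 1 and 2, 9 of 11 acinar markers and 4 of 5 tested erythroid markers were higher, and 4 of 10 stellate and 7 of 10 macrophage markers were lower. The part of these cells in the tubulin calls was not tested.

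Tubb2a had a difference of 1.52 ± 0.27 among numbers 4 to 7 (limma adjusted p = 0.013), from 47.6 ± 12.1 FPKM (SD, n = 3) to 139.4 ± 41.4 FPKM (SD, n = 4). Among numbers 1 to 3 it was -1.22 ± 0.48 (limma adjusted p = 0.67), with 79.8 ± 44.4 FPKM (SD, n = 3) in controls and 31.0 ± 6.10 FPKM (SD, n = 2) in Rspo2-AAV livers. Tubb2b had 1.86 ± 0.37 (limma adjusted p = 0.0188) in the first set and -0.66 ± 0.34 (limma adjusted p = 0.746) in the second. Tuba4a rose by 0.82 ± 0.22 and Tubb5 by 0.44 ± 0.12 among numbers 4 to 7 (limma adjusted p = 0.0462 for both), with -0.14 ± 0.41 and -0.08 ± 0.41 among numbers 1 to 3. Tuba1c (0.90 ± 0.26, limma adjusted p = 0.0574) and Tubb4b (0.42 ± 0.14, limma adjusted p = 0.0818) were not called among numbers 4 to 7. They had -0.64 ± 0.45 and -0.52 ± 0.49 among numbers 1 to 3.

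The difference between the sets was itself tested as an interaction of vector and number set. No member passed: for Tubb2a the interaction was 2.74 ± 0.56 on the log2 scale (limma adjusted p = 0.0915, unadjusted p = 0.000486) and for Tubb2b 2.52 ± 0.55 (limma adjusted p = 0.119, unadjusted p = 0.000829). The other 7 had limma adjusted p-values of 0.317 to 0.821. Over all genes 0.245% were called for this interaction, and 11.5% had an unadjusted p under 0.05. The split was drawn from earlier results of these data, and the sets also differ in Xist, which was above 1 FPKM in 3 of the 5 libraries numbered 1 to 3 and in none of the 7 numbered 4 to 7. The 7 neutrophil markers summed to 58.9 FPKM in control 3 and 48.5 and 51.4 FPKM in Rspo2-AAV 1 and 2. Controls 1 and 2 were at 13.3 and 22.3 FPKM, and all libraries numbered 4 to 7 at 6.17 to 11.3 FPKM. The erythroid sum was 762.9 and 1367 FPKM in Rspo2-AAV 1 and 2 and at most 632.6 FPKM in any other library. Within the Rspo2-AAV group these properties cannot be told apart from the numbers, while controls 1 and 2 did not share the high Xist.

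**Figure D3:**
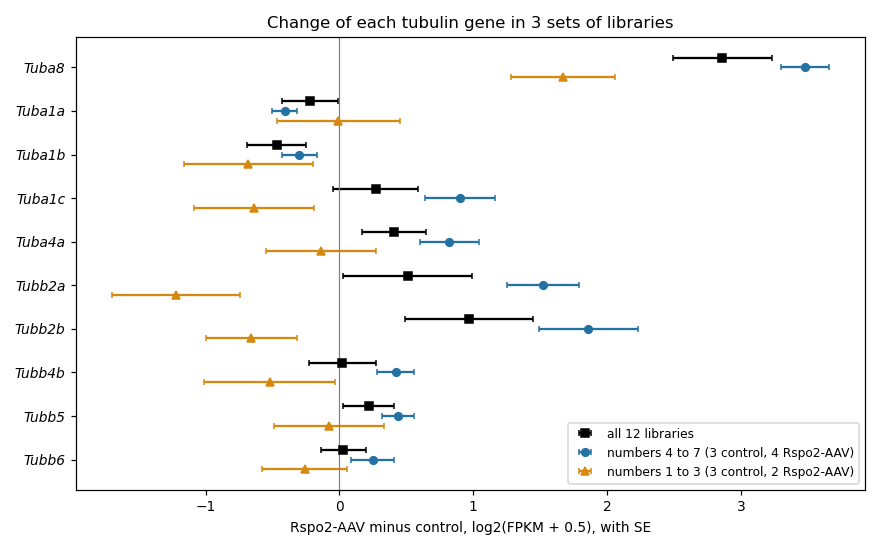
Difference between Rspo2-AAV and control livers for each tubulin gene on the log2(FPKM + 0.5) scale, with its SE, in all 12 libraries (squares), numbers 4 to 7 (circles) and numbers 1 to 3 (triangles). Tuba8, which was chosen for its rise, is at 2.86, 3.48 and 1.67 in these sets. Tubb2a is at 1.52 among numbers 4 to 7 and -1.22 among numbers 1 to 3.

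Summed over isotypes, the groups overlapped widely. The 5 alpha genes summed to 75.4 to 218.7 FPKM in controls and 99.1 to 192.0 in Rspo2-AAV livers. The 5 beta genes summed to 109.9 to 321.3 and 123.3 to 323.0 FPKM. The ratio of the alpha to the beta sum was 0.65 to 0.73 in all 6 controls. In Rspo2-AAV livers the ratio ran from 0.58 in number 5 to 0.88 in number 1.

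The make-up of the beta sum was steadier in controls than in Rspo2-AAV livers. Tubb2a took 31.0% to 40.0% and Tubb4b 40.9% to 46.3% of the beta sum in controls. In Rspo2-AAV 4 to 7, Tubb2a took 43.8% to 58.8% and Tubb4b 25.9% to 37.6%. In Rspo2-AAV 1 and 2, Tubb2a took 21.5% and 28.6% and Tubb4b 47.8% and 47.5%. The first place in the beta sum thus lay with Tubb4b in all 6 controls and in Rspo2-AAV 1 and 2, and with Tubb2a in the other 4 livers.

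**Figure D4:**
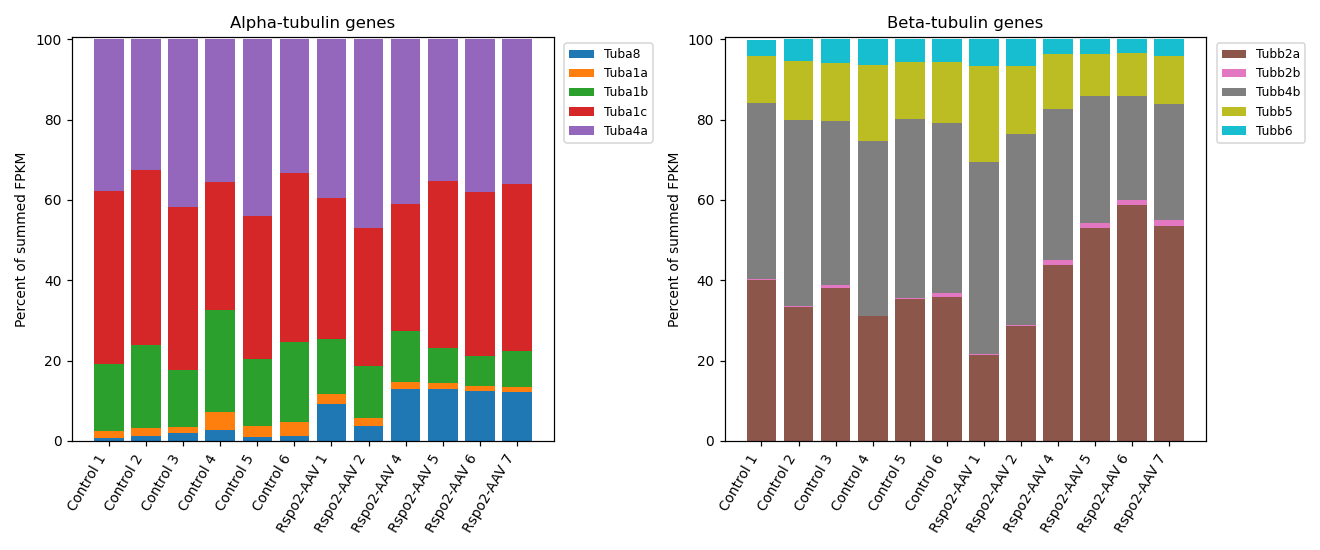
Share of each gene in the summed FPKM of the 5 alpha-tubulin genes (left) and the 5 beta-tubulin genes (right), in percent, for each library. Tuba8 makes up at most 2.70% of the alpha sum in controls and 12.1% to 13.0% in Rspo2-AAV 4 to 7, and Tubb2a reaches 43.8% to 58.8% of the beta sum in those 4 libraries.

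Members were also compared by how they varied between libraries within a group. Correlations were taken over the 12 libraries on deviations from the group means, as a description, since libraries share depth and sampling. Tubb4b, Tubb5, Tubb6 and Tuba1c moved closely together, with r of 0.83 to 0.91 for each pair of them. Tuba4a was near them, with r of 0.78 to 0.90, and Tuba1b had 0.63 to 0.89. Control 1 was the highest control for each of these genes, and its part in these values was not tested. Tubb2a and Tubb2b had r = 0.90 with each other. Tuba8 went with Tubb2b (0.68) and Tubb2a (0.67) more than with any alpha-tubulin, the nearest of which was Tuba1c (0.44). In the Rspo2-AAV livers these deviations of Tuba8 hold the gap between numbers 1 and 2 and numbers 4 to 7.

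The sequence ahead of each gene was compared for 2 letter strings: CTTTGA, the core of sites for TCF/LEF factors of the Wnt pathway, and CCAAT, the box bound by NF-Y. No RefSeq promoter was found for Tubb2b, and Tubb6 was left out of the comparison. Promoters of RefSeq (GRCm38.p6, 250 bases before to 50 after the start) were read for the other 8 of the 10 genes. The bases before the start are shown for Tuba8 and Tubb2a, which had the largest differences among these, and for Tubb4b, which differed by 0.02. CCAAT on the gene's strand is in capitals, and each sequence ends ahead of the deposited gene.
Tuba8, chr6:121210484-121210695, plus strand: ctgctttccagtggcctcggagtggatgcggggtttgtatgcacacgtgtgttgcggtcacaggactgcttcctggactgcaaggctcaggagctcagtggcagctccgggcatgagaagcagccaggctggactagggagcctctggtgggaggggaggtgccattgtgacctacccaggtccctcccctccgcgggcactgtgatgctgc
Tubb2a, chr13:34078009-34078258, minus strand: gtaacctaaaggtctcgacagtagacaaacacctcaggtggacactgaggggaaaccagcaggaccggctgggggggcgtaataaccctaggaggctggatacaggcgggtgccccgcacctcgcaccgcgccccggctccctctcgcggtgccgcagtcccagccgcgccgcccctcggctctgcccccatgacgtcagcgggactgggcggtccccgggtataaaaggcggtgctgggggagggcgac
Tubb4b, chr2:25224703-25224952, minus strand: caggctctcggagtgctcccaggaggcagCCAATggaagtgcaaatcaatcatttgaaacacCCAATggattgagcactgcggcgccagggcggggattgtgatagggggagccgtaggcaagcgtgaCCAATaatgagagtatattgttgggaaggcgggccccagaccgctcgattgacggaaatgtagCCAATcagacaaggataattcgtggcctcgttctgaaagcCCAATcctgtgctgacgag
Tubb4b held CCAAT 5 times on its own strand, starting 221, 188, 122, 59 and 19 bases before the start. Tubb5 held it 2 times and Tuba1a 1 time on their own strand, and Tuba1c 1 time on the other strand.

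Neither string was found in the Tuba8 or the Tubb2a window, on either strand. CTTTGA was found in none of the 8 tubulin promoters, and 16.0% of the 32851 promoters in the table held it on either strand. CCAAT was found in 4 of the 8, and in 37.4% of all promoters. The strings do not overlap each other. Absence of the letters from these windows says nothing on where the factors bind.

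Genes beside Tuba8 on chromosome 6 were read from the same fit. Of 12 other genes within 200 kb of it in the deposited table, 6 passed the filter on low values. By limma 1 of these was called, where 5.20% of all tested genes were. Pex26, a peroxisome biogenesis gene 11859 bases away, averaged 8.09 ± 1.3 FPKM in controls and 8.74 ± 1.58 FPKM in Rspo2-AAV livers (SD, n = 6 each; 0.10 ± 0.14 SE, limma adjusted p = 0.734). Usp18, an interferon-induced protease for ISG15 at 19052 bases, was at 10.4 ± 3.32 and 7.92 ± 2.37 FPKM (-0.36 ± 0.22, limma adjusted p = 0.365).

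The called neighbour was Slc6a12, a betaine and GABA transporter gene 116222 bases away. It rose, from a mean of 25.6 FPKM (SD 4.83) to 39.6 FPKM (SD 4.77), by 0.63 on the log2 scale (SE 0.14, limma adjusted p = 0.0238). Its relative Slc6a13, which lies between it and Tuba8, had -0.30 ± 0.14 (limma adjusted p = 0.234). Mical3 had 0.16 ± 0.11 (limma adjusted p = 0.441) and the miRNA gene Gm24855 0.15 ± 0.56 (limma adjusted p = 0.913). The 6 tested neighbours thus ran from -0.36 to 0.63. Tuba8, at 2.86, was chosen for its rise and the neighbours for their place, so the gap between them is not read as a result. Gm15856, an antisense gene that overlaps Tuba8, did not pass the filter and is named after its values were seen. It was at 0 to 0.189 FPKM in controls and 0.115 to 0.887 FPKM in Rspo2-AAV livers, on 0 to 4 and 2 to 15 reads, and the groups overlapped over all 12 libraries but not within either number set. Without known strand in the counting, its reads cannot be told apart from those of Tuba8.

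The genes whose pattern was most like that of Tuba8 over the 12 libraries were taken by Pearson correlation of log2(FPKM + 0.5) among tested protein-coding genes. Among them were Gm6665 (r = 0.97), Rspo2 and Sqle (0.96 each), and Gstm2, Lhpp, Msmo1 and Scpep1 (0.95 each). Sqle and Msmo1 encode enzymes of cholesterol synthesis, and Gstm2 a glutathione transferase. These correlations hold the group difference, for which Tuba8 was chosen, and are a description. With the group means removed, the nearest genes were Id4 (r = 0.95), Pabpc4, Rnf6 and Cyfip1 (0.94 each) and Otud1 (0.93), of which 0 were called between the groups.

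The remaining tubulin genes were scarce in these livers. Of 10 further genes of the superfamily, 2 passed the filter on low values: Tubg1, a gamma-tubulin of microtubule nucleation, at 14.1 ± 2.03 and 16.3 ± 3.29 FPKM (SD, n = 6 per group; 0.19 ± 0.15 SE, limma adjusted p = 0.499), and Tubd1, a delta-tubulin of centrioles, at 2.24 ± 0.476 and 2.13 ± 0.653 FPKM (limma adjusted p = 0.838). The platelet isotype Tubb1, the neuronal isotypes Tubb3 and Tubb4a, and Tube1 and Tubg2 were under 1 FPKM in every library. The testis isotype Tuba3a was at or under 0.0467 FPKM, and Tuba3b and Tubal3 were listed at 0 throughout.

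Genes that build, fold, modify and use microtubules were for the most part not called. Of 24 tested genes of tubulin folding, 1 was higher and 0 lower (2.55% and 2.65% of all genes), with a list median of 0.11 beside 0.00 for all genes. The higher one was Tbcc, a cofactor in the last step of dimer assembly, which had a mean of 10.9 ± 2.28 FPKM in controls and rose to 15.7 ± 2.53 FPKM (SD, n = 6 each; 0.51 ± 0.13 SE, limma adjusted p = 0.046). Among numbers 4 to 7, 4 of the 24 were higher and 0 lower, where 6.52% and 7.00% of all genes were.

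By limma 0 of 8 genes of the gamma-tubulin ring complex were called, 0 of 14 tubulin-modifying enzymes, 0 of 24 microtubule-associated proteins and 0 of 26 motor genes, with list medians of 0.04, 0.07, -0.02 and -0.03. Counts at an unadjusted p under 0.05 were 1, 1, 4 and 3, where 21.5% of all tested genes had such a p. Limma-voom called 0 in each list. Among numbers 4 to 7, 2 of the 24 associated proteins were lower and 3 of the 26 motor genes higher. Of all genes 7.00% were called lower and 6.52% higher in that set. In the other 2 lists 0 were called there. The most abundant tested members were Mzt2 and Mzt1 of the ring complex, Tpgs1 and Sirt2 among the enzymes, Map7d1 and Mtus1 among the associated proteins, and Dynll2 and Dynlrb1 among the motors, with log2 differences between -0.17 and 0.20. Of 8 tested proliferation genes 0 were called by limma or limma-voom (2 had an unadjusted p under 0.05), with Pcna at 11 ± 1.5 and 12 ± 1.61 FPKM (SD, n = 6 per group) and Rrm2 at a difference of -0.11.

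Of 19 tested genes of the actin, keratin and lamin skeleton 2 were higher and 0 lower, where 2.55% and 2.65% of all genes were. Actg1, a cytoplasmic actin, had a mean of 63.3 ± 17.9 FPKM in controls and rose to 232.8 ± 148 FPKM (SD, n = 6 each; 1.67 ± 0.37 SE, limma adjusted p = 0.0246), and Lmna, a nuclear lamin, from 9.55 ± 1.40 to 13.1 ± 1.57 FPKM (0.44 ± 0.11, limma adjusted p = 0.0401). For comparison with the pathway of the vector, 10 of 13 tested Wnt target genes were higher and 0 lower, and the 4 with the smallest p were Axin2 (1.41), Sp5 (1.51), Tbx3 (1.48) and Glul (1.41). Of 22 cholesterol synthesis genes 15 were higher and 0 lower, among them Sqle (4.27), Msmo1 (3.52), Tm7sf2 (2.11) and Srebf2 (1.37). Within numbers 4 to 7 those counts were 9 of 13 and 22 of 22, where 6.52% of all genes were higher. Both lists were chosen with earlier results of these data known.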

How the data were processed

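Poly-A RNA of 12 livers was sequenced, and the submitters' processing notes list DESeq2 1.20.0, featureCounts 1.5.0-p3 and HISAT2 2.0.5, with the build GRCm38 (mm10). The deposited table gives FPKM values computed by the authors. Whether counting used strand is not given in the sources used here. FPKM times gene length was divided by a step fitted for each library to recover reads. Of the values above 0 that were checked, 100.0% were whole within 0.01 read, and the largest values were not checked. The library size used in the FPKM was not the sum of recovered reads. It was 25238045 against 22195576 in Rspo2-AAV 1 and 15361657 against 17796257 in number 2.

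Genes averaging 0.5 FPKM or more were tested on log2(FPKM + 0.5), 6 against 6, by limma 3.58.1 (R 4.3.3) with a trended prior. Adjustment was by Benjamini-Hochberg over all tested genes, and a gene was called where the adjusted p was under 0.05. The alternative on recovered reads was limma-voom. In simulated data with 200 of 13447 genes changed, for the same comparison, the test recovered 80% of 2-fold and 93% of 4-fold changes. Noise was drawn separately for each gene and library, without the split by number seen here. The shares are averages over genes and do not apply to genes of wide spread such as Tubb2a and Tubb2b.

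The members and lists were chosen with earlier results of these data known. Named were the members, further tubulin genes and neighbours within 200 kb of Tuba8 that passed the filter, up to 4 called genes of each list (by p) or otherwise its 2 most abundant, and the 8 and 5 genes most like Tuba8, of which 1 is not reported here. Matcap1 was not matched by symbol. Shared windows were exact 100-base matches between GENCODE M21 transcripts, each read in its own direction.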

Additional observations from a re-analysis of the deposited data

Results flagged for a closer look

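Tubb2a was at 128.7 FPKM in control 1, far from the other 5 controls, which lay between 34.3 and 68.8 FPKM. The gap to the nearest control was 0.63 of the whole range of the group, and the limit for 6 samples is 0.625. Of 20 groups checked (10 genes in each of 2 groups) this was the only one past the limit, and chance gives about 1 in 20. Control 1 was also the highest control for 8 of the 10 tubulin genes.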

How the results depend on the processing

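Tuba8 was higher in Rspo2-AAV livers in every alternative run, between 1.67 (numbers 1 to 3 only) and 3.48. Leaving out 1 library gave 2.70 to 3.22. Tuba8 was chosen for its rise and its groups do not overlap, so leaving out libraries could not turn its sign. The count of other tubulin genes called, 0 of 9, became 5 among numbers 4 to 7, 2 in the 9 libraries with Xist under 1 FPKM (Tubb2b and Tuba1a), and 2 without Rspo2-AAV 1 and 2 (Tubb2a and Tubb2b), and leaving out 1 library gave 0 to 1, the 1 being Tuba1a without control 3. The alternative without Rspo2-AAV 1 and 2 was chosen after seeing the data.

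All genes called numbered 699 and became 382 with TPM scaling, 411 with no filter on low values, 1808 among numbers 4 to 7, 14 among numbers 1 to 3, 1706 in the 9 libraries with Xist under 1 FPKM, 236 when Rspo2-AAV 4 and 5 were left out, and 1348 when Rspo2-AAV 1 and 2 were. Leaving out 1 library gave 332 to 916, and the count fell more than 1.5-fold without control 2 (345), 4 (385), 5 (446) or 6 (355), or without Rspo2-AAV 5 (346), 6 (332) or 7 (405). The cause was not tested.

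Signs turned for genes near 0 and among numbers 1 to 3, where Tuba1c was at -0.64, Tuba4a -0.14, Tubb2a -1.22, Tubb2b -0.66, Tubb4b -0.52, Tubb5 -0.08 and Tubb6 -0.26. Tubb4b was at -0.03 without Rspo2-AAV 4 and 5. Leaving out 1 library put Tubb4b between -0.11 and 0.22 and Tubb6 between -0.05 and 0.14. Same-numbered samples did not vary together (correlations of -0.25, 0.05, 0.08, 0.09 and 0.16 for numbers 1, 2, 4, 5 and 6), nor did every sample match its own number best. A fit with the replicate number as a block, on the 10 samples that share numbers, called 308 genes and 0 of the 9 tubulins, and the same 10 samples without the block called 634 genes; both put Tubb4b at -0.14 and Tubb6 at -0.12.

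Depth limits Tubb2b most, which had 7 to 135 reads per library.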
